A study of Homo sapiens with 18 samples.

Results

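Nonsense-mediated decay (NMD) removes mRNAs on which translation stops too early. The data below concern 9 of its factor genes, chosen by symbol: UPF1, UPF2, UPF3A, UPF3B, SMG1, SMG5, SMG6, SMG8 and SMG9. All 9 were listed in each table used, among 16532 genes in H929, 58884 named entries in each of 2 MM1S expression tables and 20308 in the table of RNA immunoprecipitation (RIP). All 9 also passed the filter on low values in every comparison, which asks for 1 or more in enough libraries to fill the smaller group.

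The study asked what the RNA-binding protein RBM39, which takes part in pre-mRNA splicing, does in 2 established cell lines of human multiple myeloma, H929 and MM1S. In H929, 3 libraries labelled shRBM39 stood against 3 labelled scramble. In MM1S, 2 shRBM39 libraries stood against 2 scramble libraries, both from cells carrying a short hairpin construct. A further 3 MM1S libraries came from cells given indisulam, a sulfonamide drug through which the ubiquitin ligase DCAF15 takes up RBM39 and marks it for degradation, against 3 libraries from cells given the solvent DMSO. The remaining MM1S pair was 1 RIP library made with an RBM39 antibody and 1 made with IgG as control. Doses, times, hairpin sequences and clones are not given in the labels, nor whether replicates were separate cultures, so a p-value here reflects the spread among libraries, and that spread may be technical. H929 and RIP values are FPKM and MM1S expression values are TPM, both scaled for transcript length and library size.

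NMD begins when UPF1, an RNA helicase, is held on an mRNA whose stop codon lies upstream of an exon junction complex, the protein mark that splicing leaves behind. UPF2 bridges UPF1 to UPF3B or its paralogue UPF3A, which touch the junction complex. The kinase SMG1 then phosphorylates UPF1, and SMG8 and SMG9 bind SMG1 and restrain it. Phosphorylated UPF1 draws in SMG6, which cuts the mRNA near the stop codon, and SMG5, which leads to deadenylation and decapping. The mRNAs of several of these factors are known NMD targets in other human cells. Myeloma cells, like the plasma cells they resemble, make and secrete large amounts of protein.

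RefSeq promoter windows of GRCh38.p14, from 250 bases before to 50 bases after an annotated start, were found for 8 of the 9 genes. In 3 of those 8 genes a window holds TCGCGAGA or its reverse complement TCTCGCGA, a run of letters picked after the sequences had been looked at. Among all 27305 genes with a window, 1.37% hold it on either strand, as do 1.15% of 35116 windows. The stretches before the start site are shown for the 3 genes with a match, UPF3A, UPF3B and SMG5. They lie at chr13:114281542-114281600 on the plus strand for UPF3A, chrX:119853030-119853129 on the minus strand for UPF3B and chr1:156282826-156282951 on the minus strand for SMG5, and are printed 5′ to 3′ with the matches in capitals.
UPF3A: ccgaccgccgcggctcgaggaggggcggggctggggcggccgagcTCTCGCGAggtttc
UPF3B: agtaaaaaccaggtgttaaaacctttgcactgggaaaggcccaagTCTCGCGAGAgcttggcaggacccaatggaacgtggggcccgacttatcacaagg
SMG5: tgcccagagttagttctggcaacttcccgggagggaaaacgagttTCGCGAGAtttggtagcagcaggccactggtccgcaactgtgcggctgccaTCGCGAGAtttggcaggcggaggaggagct
In UPF3A the match begins 14 bases before the start, in 1 of its 3 windows. In UPF3B, with 1 window, a match on each strand overlaps in the 10 capital letters. SMG5 has 2 matches, beginning 81 and 30 bases before the start, in 1 of its 2 windows. A match describes the letters and is neither a measured binding site nor a cause of any value below.

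RBM39 itself was read first. In H929 it went against the labels, with 38.3, 38.6 and 35.6 FPKM in the libraries labelled shRBM39, against 4.56, 4.43 and 4.51 FPKM in those labelled scramble. No direction in H929 can therefore be read as an effect of less RBM39. In MM1S it had 64.8 and 52.2 TPM in shRBM39 libraries, against 176.3 and 204.6 TPM in scramble libraries (log2 difference −1.69, limma adjusted p = 0.0121). With indisulam, which acts on the protein, it had 226.5, 217.4 and 149.4 TPM, against 188.6, 178.3 and 196.0 TPM with DMSO.

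Indisulam replicate 3 stood apart from its group. Its log2 values correlated with the other 2 at 0.959 and 0.964, against 0.987 between those. Its median over all genes tested lay 0.33 below the DMSO mean on the log2 scale, against 0.09 and 0.07 above it in replicates 1 and 2. Ribosomal protein genes took 27.4% of its TPM, against 19.9% to 21.7% in the other 5 libraries of that table, and 12550 genes reached 1 TPM in it, against 13129 to 13751. Each indisulam count below is therefore given with and without it. All 9 plasma cell markers searched were listed in H929 and both MM1S expression tables. They did not all move one way. In H929, 6 passed the limma test (adjusted p below 0.05) as higher and 3 as lower, or 4 and 3 with quantile normalization. The MM1S knockdown had 1 higher and 0 lower, and indisulam 1 and 3, or 4 and 3 without replicate 3. The summed level of the 9 moved without overlap in each comparison. It was 7922 to 8059 FPKM in H929 libraries labelled shRBM39, against 5011 to 5130 FPKM in those labelled scramble, 7478 to 8646 TPM in MM1S with shRBM39, against 4578 to 6831 TPM with scramble, and 5944 to 7183 TPM with indisulam, against 7527 to 7885 TPM with DMSO. In H929 the summed T cell markers were 15.7 to 18.5 FPKM in libraries labelled shRBM39, with CD3D at 0, against 39.3 to 47.1 FPKM in those labelled scramble; all 4 were listed. The summed macrophage markers (4 of 4 listed) were 13.4 to 14.7 FPKM in libraries labelled shRBM39 and 25.1 to 26.9 FPKM in those labelled scramble, with LYZ at 0 in the scramble ones. Stroma markers (2 of 4 listed) summed to 5.45 to 5.86 FPKM in libraries labelled shRBM39, with PDGFRB at 0, and 15.7 to 17.0 FPKM in those labelled scramble, and B cell markers (3 of 4 listed) to 1.82 to 2.09 and 4.00 to 4.45 FPKM in the same order. In both MM1S expression tables CD3D and CD3G were at 0 in every library; the summed T cell markers were 0.93 to 1.65 TPM with shRBM39 and 4.66 to 5.73 TPM with scramble, and 0.97 to 1.51 TPM with indisulam and 3.10 to 4.29 TPM with DMSO. Macrophage markers there summed to 5.70 to 9.79 TPM with shRBM39 and 15.9 to 21.1 TPM with scramble. They summed to 7.22 to 8.30 TPM with indisulam and 9.50 to 10.6 TPM with DMSO, with CSF1R at 0 in all shRBM39 and indisulam libraries. Stroma sums in MM1S overlapped, at 1.84 to 4.11 TPM with shRBM39 and 1.49 to 3.42 TPM with scramble. They were 0.63 to 1.22 TPM with indisulam and 0.59 to 0.99 TPM with DMSO. B cell sums overlapped in both MM1S comparisons too. In H929 the T cell, macrophage and stroma sums each came mostly from 1 gene, the only one of its list to pass the filter. These genes were CD3E (17.0 FPKM labelled shRBM39, 43.0 FPKM labelled scramble), CD68 (13.8 and 25.5) and ACTA2 (5.6 and 16.5). Such a sum cannot tell another cell type from expression of that gene in the myeloma cells. The part of these marker shifts in the differences below was not tested, and in bulk RNA fewer cells of a type and less RNA per cell cannot be told apart.

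In H929, 1 of the 9 genes was higher and 5 were lower in the libraries labelled shRBM39 than in those labelled scramble. By these labels SMG5 fell most and SMG8 rose, while UPF3A, UPF3B and SMG6 did not pass the test. Read by RBM39 mRNA instead, the H929 libraries with less of it, those labelled scramble, had more of the 5 genes called lower and less SMG8. Among all 10360 genes tested, 24.1% were called higher and 48.1% lower (limma, Benjamini-Hochberg adjusted p below 0.05), so the share of the 9 that fell is near that of all genes. The 9 genes had a median log2(FPKM + 1) difference of −0.28, against −0.13 for all genes tested. Because that shift of all genes exceeds 0.1, differences relative to it are given too. The counts were 2 higher and 4 lower with quantile normalization or recovered reads, and 2 and 3 with median scaling. Over all genes, 34.4% were higher and 34.9% lower with quantile normalization, 32.1% and 32.7% with recovered reads, and 37.1% and 32.9% with median scaling. Ribosomal protein genes took 22.65% to 24.39% of the FPKM in libraries labelled shRBM39, against 17.27% to 17.64% in those labelled scramble, and the top 50 genes 29.49% to 31.11% in libraries labelled shRBM39, against 22.98% to 23.23% in those labelled scramble. The part of this shift in the differences was not tested. Recovered read counts behind the 9 genes ran from 420 for UPF3B in 1 library labelled shRBM39 (exact Poisson 95% interval 380.8 to 462.2 reads) to 27645 for SMG5 in 1 labelled scramble, intervals that cover counting error only.

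Among the UPF genes, UPF1 had 24.5, 27.7 and 26.7 FPKM in libraries labelled shRBM39, against 32.0, 32.4 and 31.8 FPKM in those labelled scramble. The groups did not overlap, and the log2 difference was −0.28 ± 0.052 (SE; limma adjusted p = 0.000322), or −0.15 relative to all genes. Under median scaling UPF1 no longer passed (−0.10, limma adjusted p = 0.0864), and it was −0.14 with quantile normalization (adjusted p = 0.0329) and −0.13 with recovered reads (adjusted p = 0.0272). UPF2 had 11.1, 10.9 and 8.94 FPKM in libraries labelled shRBM39, against 13.7, 14.6 and 14.8 FPKM in those labelled scramble. Every library labelled shRBM39 was below every one labelled scramble, at −0.45 ± 0.074 log2 units (SE; −0.31 relative to all genes), with a limma adjusted p of 0.000118. UPF2 still passed at −0.27 with quantile normalization (adjusted p = 0.00584) and −0.28 with median scaling (adjusted p = 0.00404). UPF3A, the paralogue of UPF3B, had 5.36, 5.22 and 5.50 FPKM in libraries labelled shRBM39, against 5.05, 5.11 and 5.22 FPKM in libraries labelled scramble. The limma log2 difference of UPF3A was 0.05 (adjusted p = 0.438), but it passed as higher with quantile normalization (0.21, adjusted p = 0.00788), median scaling (0.21, adjusted p = 0.00842) and recovered reads (0.22, adjusted p = 0.011). UPF3B lay between 3.66 and 4.87 FPKM in libraries labelled shRBM39, against 4.42 to 4.61 FPKM in libraries labelled scramble, and the groups overlapped.

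In the kinase complex SMG1 and SMG9 fell and SMG8 rose. SMG1 had 5.82, 7.73 and 7.28 FPKM in libraries labelled shRBM39, against 8.68, 9.10 and 8.26 FPKM in those labelled scramble. Its log2 difference was −0.29 ± 0.085 (SE; limma adjusted p = 0.00743), or −0.16 relative to all genes, and it did not pass with quantile normalization, median scaling or recovered reads (−0.14, −0.13 and −0.17). SMG9 had 8.75, 9.25 and 9.38 FPKM in libraries labelled shRBM39, against 11.7, 11.9 and 11.9 FPKM in those labelled scramble. That is −0.34 ± 0.056 on the log2 scale (SE; −0.21 relative to all genes), with a limma adjusted p of 9.47e-05. SMG9 still passed at −0.17 with quantile normalization (adjusted p = 0.0144), −0.18 with median scaling (adjusted p = 0.0113) and −0.22 with recovered reads (adjusted p = 0.002). SMG8, which binds SMG1 together with SMG9, had 14.0, 14.7 and 14.4 FPKM in libraries labelled shRBM39, against 10.3, 10.8 and 10.7 FPKM in those labelled scramble. Its log2 difference was 0.40 ± 0.054 (SE; limma adjusted p = 1.73e-05), or 0.54 relative to all genes.

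Of the effectors, SMG5 fell and SMG6 did not pass the test. SMG5, an adaptor that binds phosphorylated UPF1, had 97.6, 99.5 and 98.0 FPKM in libraries labelled shRBM39, against 143.8, 146.8 and 136.6 FPKM in those labelled scramble. The gap between the groups exceeded the range within either, at −0.53 ± 0.040 log2 units (SE; −0.39 relative to all genes), with a limma adjusted p of 9.35e-08. With median scaling SMG5 was at −0.35 (adjusted p = 1.11e-05). SMG6, the endonuclease, had 6.03, 7.20 and 7.33 FPKM in libraries labelled shRBM39, against 7.43, 6.96 and 7.11 FPKM in those labelled scramble, and the groups overlapped (log2 difference −0.06, limma adjusted p = 0.474).

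**Figure D1:**
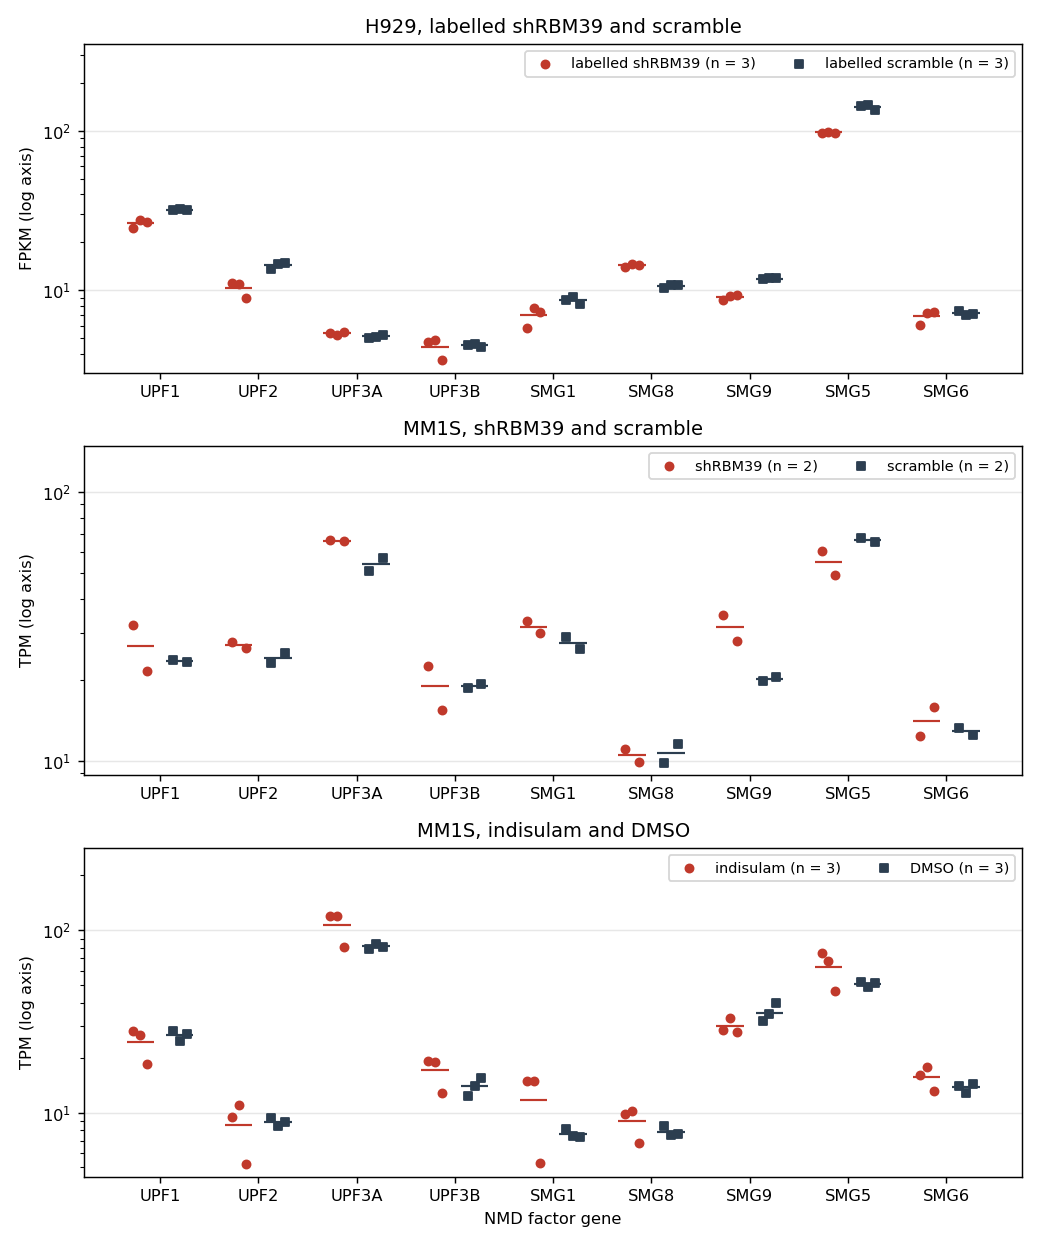
FPKM (H929) or TPM (MM1S) of the 9 NMD factor genes on log axes, 1 point a library and a bar at each group mean. Between the H929 groups only UPF3B and SMG6 overlap, and UPF3A nearly does. UPF1, UPF3B, SMG6 and SMG8 overlap between the MM1S knockdown groups. The share of all genes without overlap was not counted. Indisulam replicate 3, the rightmost of its 3 points, is the lowest of them for all 9 genes.

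In MM1S, 0 of the 9 genes passed the test between shRBM39 and scramble libraries with limma. At an unadjusted limma p under 0.05 the count was 1, SMG9, against 4556 of all 14152 genes tested. The count was also 1 with adjusted values under quantile normalization and under median scaling, again SMG9. Among all 14152 genes tested, 3.97% were called higher and 6.35% lower. The shares called higher were 5.29% with quantile normalization and 5.43% with median scaling. The median log2(TPM + 1) difference of the 9 genes was 0.15, against −0.00075 for all genes tested. Over all genes, 465 were called without shRBM39 replicate 1 and 0 without any other single library, against 1461 with all 4.

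SMG9 had 34.9 and 27.9 TPM in shRBM39 libraries, against 19.8 and 20.5 TPM in scramble libraries. Both shRBM39 libraries were higher, with a log2 difference of 0.61 ± 0.16 (SE; limma unadjusted p = 0.0113, adjusted p = 0.0703). With quantile normalization the difference of SMG9 was 0.66 (limma adjusted p = 0.0441), and with median scaling 0.65 (adjusted p = 0.0469). The other subunits of the kinase complex were closer together. SMG1 had 33.1 and 29.9 TPM with shRBM39, against 28.9 and 26.1 TPM with scramble, without overlap but short of the test (0.19, limma adjusted p = 0.397), and SMG8 had 11.1 and 9.93 TPM with shRBM39, against 9.79 and 11.6 TPM with scramble.

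UPF3A had 66.1 and 65.8 TPM in shRBM39 libraries, against 50.8 and 57.1 TPM in scramble libraries (log2 difference 0.29 ± 0.13 SE, limma adjusted p = 0.189). UPF2 had 27.7 and 26.4 TPM with shRBM39, against 23.1 and 25.1 TPM with scramble (0.16, limma adjusted p = 0.458). UPF1 had 32.2 and 21.5 TPM with shRBM39, against 23.8 and 23.3 TPM with scramble. UPF3B had 22.5 and 15.5 TPM with shRBM39, against 18.7 and 19.3 TPM with scramble. In both genes the 2 shRBM39 libraries lay on either side of the scramble pair. SMG5 had 60.6 and 49.3 TPM with shRBM39, against 67.3 and 65.4 TPM with scramble, both below the scramble pair (−0.28 ± 0.15 SE, limma adjusted p = 0.261). SMG6 had 12.4 and 15.9 TPM with shRBM39, against 13.2 and 12.5 TPM with scramble, and these overlapped.

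With indisulam, 0 of the 9 genes passed the test against DMSO with limma when all libraries were used. At an unadjusted limma p under 0.05 the count was 0 of 9, against 5656 of 13445 genes tested. With quantile normalization 3 passed as higher, against 22.5% of all genes, and with median scaling 2, against 18.7% of all genes. Without indisulam replicate 3 the count was 6 of 9, all higher, against 37.9% of 14238 genes called higher and 27.8% lower in the same fit. With all libraries, 8.47% of 13445 genes were called higher and 21.5% lower. The median log2(TPM + 1) difference of the 9 genes was 0.17, against −0.05 for all genes tested, and without replicate 3 it was 0.32 for the 9, against 0.10 for all genes.

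UPF3A had 120.3, 120.4 and 81.1 TPM with indisulam, against 78.9, 84.4 and 81.4 TPM with DMSO. Replicates 1 and 2 were above every DMSO library and replicate 3 lay within the DMSO range. The log2 difference was 0.37 ± 0.16 (SE; limma unadjusted p = 0.0546, adjusted p = 0.126). It was 0.63 with quantile normalization (limma adjusted p = 0.00698), 0.38 with median scaling (adjusted p = 0.0269) and 0.56 without replicate 3 (adjusted p = 0.00016), the last being 0.45 relative to all genes. UPF3B had 19.2, 19.0 and 12.9 TPM with indisulam, against 12.3, 14.0 and 15.5 TPM with DMSO. Its log2 difference was 0.25 ± 0.19 (SE; limma adjusted p = 0.355), and UPF3B passed with quantile normalization (0.32, adjusted p = 0.0422) and without replicate 3 (0.43, adjusted p = 0.00924). UPF1 had 28.0, 26.5 and 18.4 TPM with indisulam, against 28.1, 24.8 and 27.0 TPM with DMSO, and UPF2 had 9.45, 11.0 and 5.20 TPM with indisulam, against 9.36, 8.40 and 8.88 TPM with DMSO. Neither UPF1 nor UPF2 passed with or without replicate 3, and their differences were −0.15 and −0.10 with it but 0.03 and 0.18 without it.

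SMG1 had 14.8, 14.8 and 5.30 TPM with indisulam, against 8.15, 7.41 and 7.34 TPM with DMSO. Replicates 1 and 2 were almost equal and above all DMSO libraries, while replicate 3 was below all of them. The log2 difference of SMG1 was 0.43 ± 0.36 (SE; limma adjusted p = 0.396) with all libraries and 0.88 ± 0.087 (SE; limma adjusted p = 0.000169) without replicate 3, or 0.77 relative to all genes, the largest of the 9. SMG1 has near-identical pseudogene copies, so reads may be split among them. Of 7 listed SMG1 pseudogenes, SMG1P3 had 6.44, 5.58 and 1.97 TPM with indisulam, against 3.19, 3.21 and 1.61 TPM with DMSO, and SMG1P2 had 2.04, 2.14 and 0.98 TPM with indisulam, against 1.06, 0.99 and 1.29 TPM with DMSO. The 7 pseudogenes tested were SMG1P1, SMG1P2, SMG1P3, SMG1P5, SMG1P6, SMG1P7 and, of UPF3A, UPF3AP2. With all libraries 0 of these 7 passed with limma and 0 had an unadjusted p under 0.05, while 1 passed with median scaling. SMG1P3 and SMG1P2 passed as higher without replicate 3 (0.97 and 0.55), whereas SMG1P1, SMG1P5, SMG1P6 and SMG1P7 did not and SMG1P4 was below the filter. UPF3AP2, a UPF3A pseudogene, passed as higher in the fit without replicate 3, with 4.51, 3.53 and 2.72 TPM with indisulam, against 2.31, 2.59 and 2.43 TPM with DMSO. In the MM1S knockdown 0 of 8 pseudogenes tested passed with limma, and 0 had an unadjusted p under 0.05. SMG1P1 was the most abundant there, at 17.9 to 21.5 TPM with shRBM39 and 22.4 to 25.7 TPM with scramble. Pseudogene values were not analysed in H929 or the RIP.

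SMG8 had 9.78, 10.3 and 6.78 TPM with indisulam, against 8.48, 7.49 and 7.62 TPM with DMSO, and passed only in the fit without replicate 3 (0.32, limma adjusted p = 0.0213) among the settings tried. SMG9 had 28.4, 33.0 and 27.6 TPM with indisulam, against 31.8, 34.5 and 39.8 TPM with DMSO (−0.25 ± 0.13 SE, limma adjusted p = 0.204). It was the 1 gene of the 9 with a difference below 0 in the fit without replicate 3 (−0.20, limma adjusted p = 0.161).

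SMG5 had 74.8, 68.1 and 46.4 TPM with indisulam, against 51.9, 49.0 and 51.6 TPM with DMSO. Replicates 1 and 2 were above every DMSO library and replicate 3 was below every one. Its log2 difference was 0.28 ± 0.18 (SE; limma adjusted p = 0.272) with all libraries, 0.50 with quantile normalization (limma adjusted p = 0.0119), 0.29 with median scaling (adjusted p = 0.0425) and 0.48 without replicate 3 (adjusted p = 0.000749). SMG6 had 16.2, 17.7 and 13.1 TPM with indisulam, against 14.1, 12.9 and 14.4 TPM with DMSO and passed without replicate 3 (0.28, limma adjusted p = 0.0258).

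**Figure D2:**
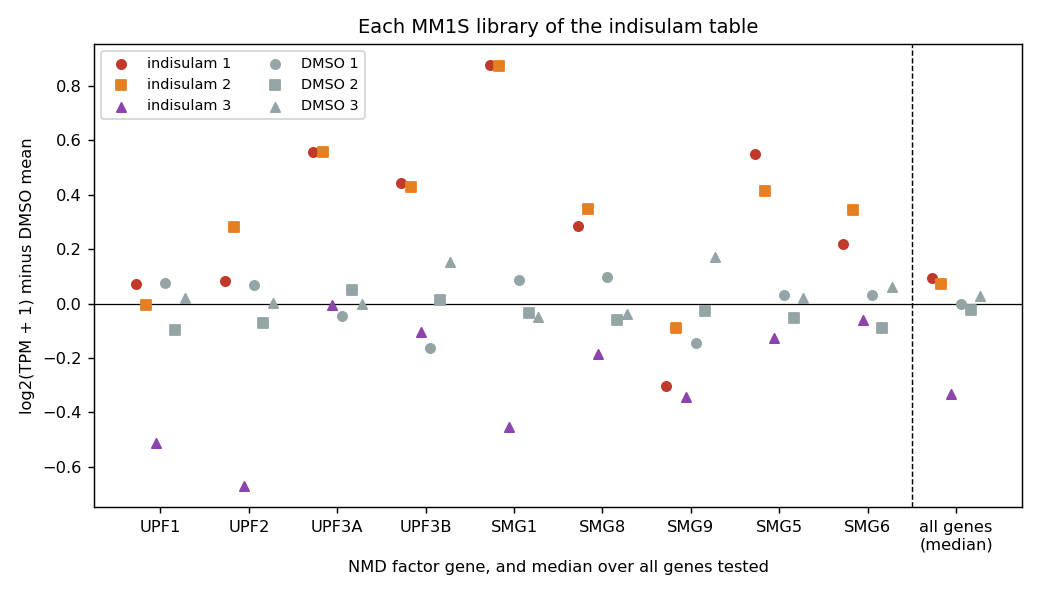
log2(TPM + 1) of each library in the indisulam table minus the DMSO mean, for the 9 NMD factor genes and for the median over all genes tested. Indisulam replicates 1 and 2 lie together for SMG1, UPF3A and UPF3B, and replicate 3 lies at or below 0 for all 9 genes, with the median of all genes in that library at −0.33.

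The 3 comparisons were not tested against one another, and each was normalized on its own. For SMG5, the difference was −0.53 in H929, −0.28 in the MM1S knockdown and 0.28 with indisulam. SMG9 gave −0.34, 0.61 and −0.25 in the same order, and UPF3A gave 0.05, 0.29 and 0.37, passing in none of the 3 as fitted. SMG8 passed as higher in H929 at 0.40 and gave −0.02 and 0.15 in the MM1S comparisons.

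**Figure D3:**
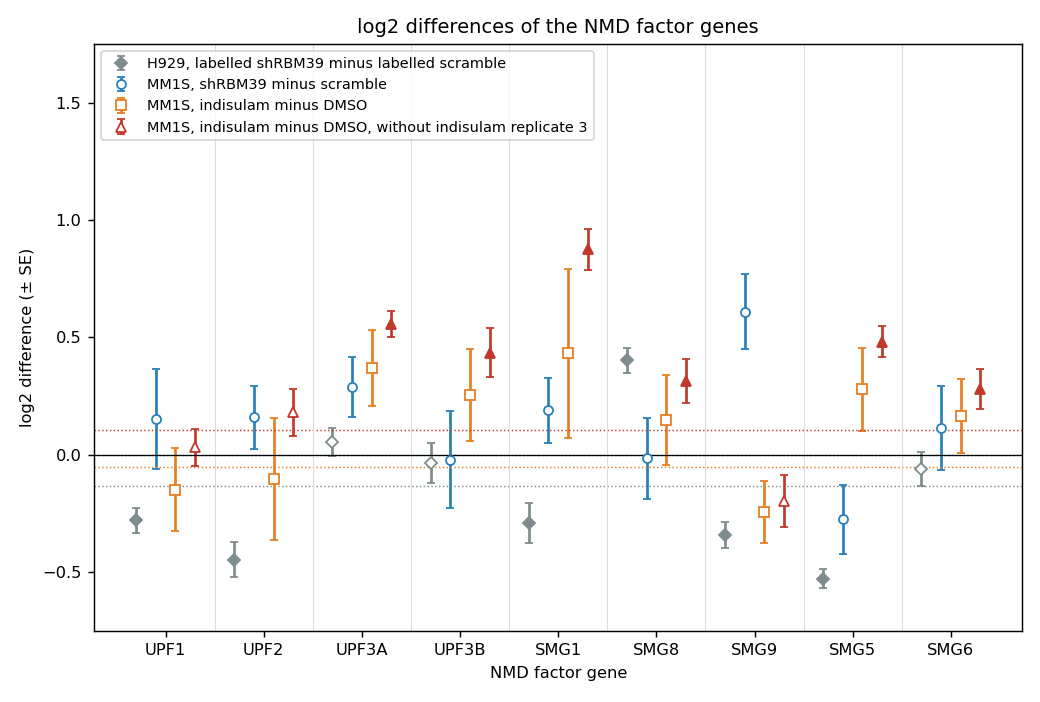
log2 differences ± SE of the 9 NMD factor genes in the 3 expression comparisons and in the indisulam comparison without replicate 3. Filled symbols passed the limma adjusted p of 0.05, and dotted lines in each colour mark the median of all genes tested, −0.13 in H929 and 0.10 for indisulam without replicate 3.

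Per transcript length, SMG5 was the most abundant of the 9 in H929, at 98.4 ± 1.00 FPKM in libraries labelled shRBM39 and 142.4 ± 5.26 FPKM in those labelled scramble (SD, n = 3 each). UPF1 came next, at 26.3 ± 1.66 FPKM in libraries labelled shRBM39 and 32.1 ± 0.264 FPKM in those labelled scramble. The UPF3 paralogues were the lowest, UPF3A at 5.36 ± 0.137 and UPF3B at 4.41 ± 0.659 FPKM in libraries labelled shRBM39, and at 5.13 ± 0.0867 and 4.51 ± 0.0932 FPKM in those labelled scramble. In libraries labelled scramble no neighbours in this order overlapped, whereas in those labelled shRBM39 UPF2 overlapped with SMG9 and SMG1 with SMG6.

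In MM1S the order was different at the top. UPF3A and SMG5 were the highest 2 of the 9 in all 4 groups, UPF3A at 66.0 ± 0.212 TPM in shRBM39 and 54.0 ± 4.41 TPM in scramble libraries (SD, n = 2 each), and at 107.3 ± 22.7 TPM with indisulam and 81.5 ± 2.75 TPM with DMSO (SD, n = 3 each). SMG8 was the lowest in both knockdown groups, at 10.5 ± 0.841 TPM with shRBM39 and 10.7 ± 1.24 TPM with scramble. In the indisulam groups UPF2, SMG8 and SMG1 were the lowest 3, and with DMSO the ranges of neighbours in that order overlapped, at 8.88 ± 0.480, 7.86 ± 0.538 and 7.63 ± 0.449 TPM. SMG1 and UPF2 stood much higher in the scramble libraries of the other MM1S table, at 27.5 ± 1.98 and 24.1 ± 1.41 TPM (SD, n = 2), but the tables were normalized separately and this gap was not tested.

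In the RIP, 2 of the 9 mRNAs had a log2 ratio of RBM39 over IgG above 1 and 3 had one below −1. Among all 10966 genes kept, 22.7% were above 1 and 23.9% below −1, so these shares are not far from the background. With 1 library a group there is no test, no replicate check and no known depth. SMG6 had 15.6 FPKM with the RBM39 antibody and 3.26 FPKM with IgG, a log2((FPKM + 1) ratio) of 1.96, higher than 93.8% of genes. UPF2 had 47.0 FPKM with the RBM39 antibody and 17.1 FPKM with IgG, a ratio of 1.41. SMG8 lay at the threshold, at 23.5 FPKM with the RBM39 antibody and 11.6 FPKM with IgG (0.96), and was past 1 with a pseudocount of 0.1 (1.01) or with each library centred on its median (1.09).

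SMG5 had 95.6 FPKM with the RBM39 antibody and 64.6 FPKM with IgG (0.56), SMG1 had 42.3 FPKM with the RBM39 antibody and 34.4 FPKM with IgG (0.29), and UPF3A had 32.2 FPKM with the RBM39 antibody and 30.0 FPKM with IgG (0.10). The mRNAs that were lower with the RBM39 antibody were UPF1, at 17.6 FPKM with the RBM39 antibody and 45.5 FPKM with IgG (−1.32), SMG9, at 10.4 FPKM with the RBM39 antibody and 29.8 FPKM with IgG (−1.44), and UPF3B, at 3.17 FPKM with the RBM39 antibody and 15.4 FPKM with IgG (−1.97). The paralogues UPF3A and UPF3B thus differed by more than 2 on the log2 scale in this pair of libraries. RBM39 mRNA itself was lower with the RBM39 antibody, at 62.1 FPKM with the RBM39 antibody and 126.5 FPKM with IgG (−1.01).

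**Figure D4:**
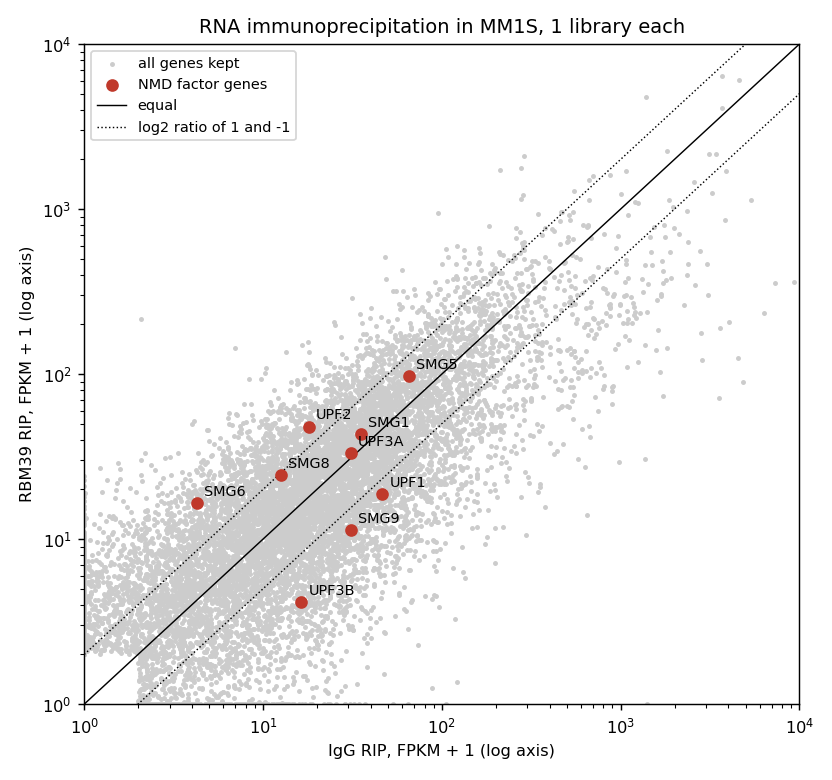
FPKM + 1 in the RBM39 RIP library against the IgG RIP library on log axes, for all genes kept (grey) and the 9 NMD factor genes (red). SMG6 and UPF2 lie above the upper dotted line (log2 ratio of 1), and UPF1, SMG9 and UPF3B lie below the lower one (−1), within the cloud of all genes.

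Other genes around the pathway were read from gene lists, against shares of all genes that changed with the setting. With indisulam, 8.47% of all genes were higher and 21.5% lower, or 37.9% and 27.8% without replicate 3. These shares were 22.5% and 20.7% with quantile normalization, 18.7% and 21.8% with median scaling, and 2.32% and 7.79% with no filter. On omission of any other library they were 2.48% to 3.91% and 10.6% to 17.1%. In the MM1S knockdown they were 3.97% and 6.35%, and in H929 24.1% and 48.1%. Of 9 exon junction complex genes, 1 was higher and 6 were lower with indisulam than with DMSO when all libraries were used, and without replicate 3 the counts were 2 and 6. EIF4A3, the helicase that anchors the complex on RNA, had 27.0 ± 1.82 TPM with indisulam and 63.9 ± 3.17 TPM with DMSO (SD, n = 3 each; limma log2 difference −1.21, adjusted p = 0.000398). Its core partners MAGOH, at 54.8 ± 3.51 TPM with indisulam and 89.4 ± 3.20 TPM with DMSO, and RBM8A, at 110.4 ± 11.7 TPM with indisulam and 179.7 ± 7.33 TPM with DMSO, were lower too, while CASC3 was higher at 40.8 ± 12.0 TPM with indisulam and 23.7 ± 0.705 TPM with DMSO (limma adjusted p = 0.0458). The call of CASC3 was lost with limma without trend and robust options, with no filter and on omission of any DMSO library or of indisulam replicate 1 or 2. The count of lower genes in this list was 3 to 6 under the alternatives tried. In the MM1S knockdown 1 of 9 was lower, MAGOHB, at 8.27 ± 1.74 TPM with shRBM39 and 22.6 ± 5.12 TPM with scramble (SD, n = 2 each; limma adjusted p = 0.0313). With no filter, with the replicate block and on omission of any library the count was 0. In H929 2 were higher and 3 lower (3 and 1 with quantile normalization, 4 and 1 with median scaling), with RBM8A at 58.7 ± 1.40 FPKM in libraries labelled shRBM39 and 40.3 ± 0.806 FPKM in those labelled scramble (SD, n = 3 each), and CASC3 at 30.1 ± 1.18 FPKM in libraries labelled shRBM39 and 41.6 ± 0.436 FPKM in those labelled scramble.

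Among 14 further NMD genes, RUVBL2, an ATPase that helps assemble the SMG1 kinase family, was lower in both MM1S comparisons and higher in the H929 libraries labelled shRBM39. Read by RBM39 mRNA, the libraries with less of it, labelled scramble in H929 and shRBM39 in MM1S, had less RUVBL2 in both lines. It had 37.1 ± 2.33 TPM with indisulam and 104.6 ± 5.60 TPM with DMSO (SD, n = 3 each; limma adjusted p = 0.000152), 50.8 ± 11.9 TPM with shRBM39 and 94.3 ± 0.346 TPM with scramble (SD, n = 2 each; limma adjusted p = 0.0453), and 63.2 ± 2.38 FPKM in H929 libraries labelled shRBM39 and 42.2 ± 1.81 FPKM in those labelled scramble. Its partner RUVBL1 was lower, at 30.2 ± 3.89 TPM with indisulam and 55.2 ± 1.09 TPM with DMSO, as was the helicase MOV10, at 1.52 ± 0.222 TPM with indisulam and 5.80 ± 1.40 TPM with DMSO. The counts over the list were 0 higher and 4 lower with indisulam (4 and 5 without replicate 3, 2 and 3 with quantile normalization or median scaling), 0 and 1 in the MM1S knockdown, and 5 and 4 in H929. At an unadjusted limma p under 0.05 they were 0 and 5 with indisulam and 0 and 4 in the MM1S knockdown. Over all genes, both directions together, 5656 of 13445 had such a p with indisulam and 4556 of 14152 in the MM1S knockdown. The call of RUVBL2 in the MM1S knockdown was lost with no filter, with limma without trend and robust options, with the replicate block or its crossed form, and on omission of either scramble library or of shRBM39 replicate 2.

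The list of general mRNA decay genes, with 37 members, had 0 higher and 16 lower with indisulam, 13 and 17 without replicate 3, 6 and 12 with quantile normalization and 6 and 11 with median scaling. On omission of any other library the count of lower genes was 8 to 12, the lowest without DMSO replicate 3. At an unadjusted limma p under 0.05, with all libraries, 4 were higher and 16 lower, against 5656 of 13445 genes in both directions together. LSM4 and LSM5, subunits of the LSM rings that bind RNA ends, had 95.9 ± 19.4 and 30.0 ± 4.11 TPM with indisulam, against 223.1 ± 14.6 and 68.4 ± 5.09 TPM with DMSO (SD, n = 3 each). In the MM1S knockdown 1 was higher, the deadenylase PAN2 at 112.5 ± 8.46 TPM with shRBM39 and 59.7 ± 1.95 TPM with scramble, and 4 were lower, among them the decapping enzyme DCP2 at 7.70 ± 0.156 TPM with shRBM39 and 16.1 ± 1.56 TPM with scramble (SD, n = 2 each). These counts became 0 and 0 with no filter, with the replicate block and on omission of any library, 1 and 0 with the crossed block and 1 and 1 with limma without trend and robust options. At an unadjusted limma p under 0.05 they were 5 and 10, against 4556 of 14152 genes in both directions together. In H929 6 were higher and 16 lower, against 12 and 11 with quantile normalization and 14 and 11 with median scaling. DCP1A had 6.34 ± 0.662 FPKM in libraries labelled shRBM39 and 3.17 ± 0.0730 FPKM in those labelled scramble, and CNOT6 had 5.77 ± 0.485 FPKM in libraries labelled shRBM39 and 11.7 ± 0.452 FPKM in those labelled scramble (SD, n = 3 each).

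Genes listed for transcripts known from other human cells to be NMD-sensitive moved both ways. Their values are for whole genes, so they do not separate an NMD-sensitive transcript from other transcripts of the same gene. Of 20 tested with indisulam, 4 were higher and 6 lower, against 6 and 8 without replicate 3 and 7 and 3 with quantile normalization. Omission of any 1 DMSO library gave 3 and 2, and omission of indisulam replicate 1 gave 3 and 3, as did no filter. The noncoding snoRNA host genes GAS5, at 973.0 ± 70.7 TPM with indisulam and 535.6 ± 35.6 TPM with DMSO, and ZFAS1, at 141.1 ± 17.1 TPM with indisulam and 72.0 ± 5.22 TPM with DMSO, were higher (SD, n = 3 each; limma adjusted p = 0.000791 and 0.00132). BAG1, at 52.9 ± 5.73 TPM with indisulam and 108.2 ± 5.26 TPM with DMSO, and the splicing factor SRSF3, at 118.4 ± 31.5 TPM with indisulam and 230.8 ± 8.57 TPM with DMSO, were lower. In the MM1S knockdown 0 of 20 were higher and 1 was lower, RPL12, against 1 and 0 with quantile normalization, 0 and 0 with median scaling, no filter, either block, limma without trend and robust options or any library omitted, and 2 and 3 at an unadjusted limma p under 0.05. In H929, 7 of 14 were higher and 6 lower, and the stress transcription factor ATF3 had 4.68 ± 0.407 FPKM in libraries labelled shRBM39 and 18.8 ± 0.377 FPKM in those labelled scramble (SD, n = 3 each). In the RIP, 0 of 14 genes of this list had a ratio above 1 and 5 had one below −1, against 4 and 1 of 13 further NMD genes, 1 and 2 of 9 exon junction complex genes and 4 and 12 of 36 general decay genes.

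The 5 other genes whose 3 log2 differences, relative to all genes, lay nearest to the medians of the NMD factor genes were VDAC2, APPBP2, ZMYND11, IVNS1ABP and ZSWIM3. Their distances were 0.040 to 0.059 on the log2 scale among 9267 genes tested in all 3 comparisons, measured over 3 values only.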

How the data were processed

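Values of 16 RNA sequencing libraries and 2 RIP libraries were taken as deposited. TRIzol extraction and a SMARTER mRNA library kit are named in the labels' protocols. Not given in the sources used here are the aligner, the counting tool, its strand setting and the annotation. GRCm38 and mm10, both mouse builds, stand in the submitters' processing notes although the cells and symbols are human, so coordinates come from RefSeq alone. H929 and RIP values are FPKM as deposited by the authors, with column totals that differ between libraries. The file names of the MM1S expression data also say FPKM, but these deposited values are TPM, since all columns of a table have nearly the same total; the planned test was kept. Rows with no gene name (834 in the MM1S knockdown data and 473 in the indisulam data, holding 0.436% to 0.459% and 0.174% to 0.237% of TPM) were left out, and 1533 entries repeat a symbol. Each column carries a sample number found in the labels, and 0 columns had no match. "In" was read as indisulam, from the design text, and the numbers 1 and 2 of the MM1S knockdown as replicates. Between libraries of a group, 0% of values of 10 or more were identical in H929 and 0.014% to 0.178% in MM1S.

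In H929 the FPKM steps gave whole reads for 99.843% of 16532 genes (within 0.005 reads), with 30456459 to 34362361 reads a library; depth of the MM1S and RIP libraries is unknown. All genes passing the filter (a value of 1 or more in enough libraries to fill the smaller group) entered limma 3.58.1 under R 4.3.3, run with its trend and robust options on log2(value + 1), two-sided. Such differences understate changes of low genes. Calls needed an adjusted p (Benjamini-Hochberg, over all genes fitted) below 0.05. RIP ratios are log2((RBM39 + 1)/(IgG + 1)) and were counted past 1 in size. Each fit was tested on simulated data with 200 genes changed by 0.5, 1 or 2 log2 units. In that order of size, the H929 fit called 83.3%, 100% and 100% of them. The MM1S knockdown fit called 0%, 0% and 20.3%, and the indisulam fit 6.25%, 37.3% and 76.8%. The data held more calls than 200, so these shares need not hold for them. A gene not called in MM1S is therefore not shown to be unchanged. Members and lists were chosen with earlier results of these data known. The naming rule took RBM39, the 9 members, the listed pseudogenes, up to 3 called genes per direction of each other list by adjusted p (some of them are printed) and the 5 nearest patterns; 1 further gene it named is not reported here. The alternatives were quantile normalization, median scaling, pseudocount 0.1, filters at 0 or 5, plain limma, the replicate block and omission of each library. Chosen after seeing the data were recovered reads with limma-voom, a crossed replicate block and list counts without indisulam replicate 3. Python 3.11.15 with NumPy 2.4.6, pandas 2.3.3, SciPy 1.17.1 and Matplotlib 3.10.9 did the rest.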

Additional observations from a re-analysis of the deposited data

Results flagged for a closer look

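For 3 genes the libraries labelled shRBM39 and scramble did not overlap in either line, and their order by label was opposite between the lines. This difference between the lines was not tested, and the share of all genes that part in this way was not counted. In MM1S all 3 missed the test (limma adjusted p = 0.458 for UPF2, 0.397 for SMG1 and 0.0703 for SMG9). With 2 libraries against 2, the smallest p that an exact test can give is 0.33. UPF2 had log2 differences of −0.448 in H929 and 0.159 in MM1S. SMG1 had −0.292 in H929 and 0.189 in MM1S. SMG9 had −0.344 in H929 and 0.609 in MM1S. In H929 the RBM39 values go against the labels, so the same label does not stand for the same RBM39 level in both lines. The libraries with less RBM39 mRNA were those labelled scramble in H929 and shRBM39 in MM1S. They were the higher ones in both lines for all 3 genes, which follows from how the genes were picked. By label, SMG5 was lower in both lines (−0.53 in H929 and −0.28 in MM1S) and UPF3A higher (0.05 and 0.29), each without overlap. In H929 the UPF3A groups nearly touched, at 5.222 FPKM or more labelled shRBM39 and 5.217 FPKM or less labelled scramble. UPF3A did not pass there (limma adjusted p = 0.438). In MM1S neither gene passed (limma adjusted p = 0.261 for SMG5 and 0.189 for UPF3A). Read by RBM39 mRNA, the signs of SMG5 and UPF3A are opposite between the lines, which was not tested.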

How the results depend on the processing

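Of the 9 genes, 6, 0 and 0 were called in H929, the MM1S knockdown and indisulam with a replicate block, limma without trend and robust, a filter at 5 or none, and a pseudocount of 0.1. H929 had 5 with median scaling and 6 with quantile normalization or recovered reads. The MM1S knockdown had 1 with quantile normalization and with median scaling, and indisulam had 3 and 2. Leaving out each library in turn gave 6 to 6, 0 to 0 and 0 to 6. Over all genes, the MM1S knockdown had 255 calls with the replicate block, 772 with the numbers crossed, 0 with no filter and 0 to 465 with a library left out, against 1461; indisulam had 1849 (without DMSO replicate 3) to 9350 (without indisulam replicate 3), against 4024. Deviations of same-numbered libraries from their group means correlated weakly (0.129, −0.00044 and 0.025 in H929, −0.142 in the MM1S knockdown, 0.137, −0.148 and −0.025 with indisulam). With 2 or 3 libraries a group this cannot show whether they shared a batch. Signs of uncalled differences turned in H929 for UPF3B and SMG6 with quantile normalization (0.12 and 0.092), median scaling (0.11 and 0.099) and recovered reads (0.12 and 0.092), and with libraries left out (−0.095 to 0.071 and −0.10 to 0.018). In the MM1S knockdown they turned for UPF3B and SMG8 with quantile normalization (0.032 and 0.020) and median scaling (0.022 and 0.026), and with libraries left out for UPF1 (−0.13 to 0.43), UPF3B (−0.28 to 0.24), SMG6 (−0.055 to 0.28) and SMG8 (−0.12 to 0.093). With indisulam they turned with libraries left out for UPF1 (−0.26 to 0.032) and UPF2 (−0.29 to 0.18). The cause was not tested. Among called genes, the share called higher was 33.4% in H929, against 53% with median scaling and 49.6% with quantile normalization or recovered reads, and 28.3% with indisulam, against 46.2% and 52.1%. Leaving out 1 library of the MM1S knockdown leaves 1 in a group, assumed to vary like the other group.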
